A study of Mus musculus with 6 samples.

Results

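The 10 genes of the Myc network and of nucleolar growth were followed in mouse skin fibroblasts with and without endothelin 1 (Et1), a secreted peptide that acts on G-protein-coupled receptors. They were the transcription factor Myc and its relative Mycn, their partner Max, the antagonists Mxi1, Mxd4 and Mnt, and the growth targets Odc1, Ncl, Npm1 and Fbl. Members were the array probe sets whose platform annotation names exactly 1 gene symbol, equal to one of these. That rule found 25 probe sets for all 10 genes, among 45037 probe sets and 18193 singly named genes on the array. RNA came from primary dermal fibroblasts of the B6 strain, grown out of pieces of skin from newborn pups of both sexes. The sample labels give an age of 0 to 2 days and passage 6, and the series text gives pups of up to 3 days and cultures split by passage 5. The treated group had 100 nM synthetic Et1 peptide in the medium for 24 hours, and the control group had no addition; both were kept in the same serum-containing medium. Each group held 3 arrays, named as biological replicates in the labels. The animals behind each culture are not named, so the p-values measure the spread between these arrays.

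Myc binds DNA as a dimer with Max, at E-box sequences, and raises the transcription of genes for cell growth. Mxi1, Mxd4 and Mnt compete for Max and, as dimers with it, repress transcription through Sin3 corepressors. Among the best known Myc targets are Odc1, which makes the polyamine putrescine, and the nucleolar proteins nucleolin (Ncl), nucleophosmin (Npm1) and fibrillarin (Fbl), which serve the making of ribosomes. In fibroblasts Myc is a classic early response gene to serum and mitogens.

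Promoter windows were searched for the element that Myc and Max bind. RefSeq windows of 300 bases (GRCm38.p6), from 250 before to 50 after the annotated start, were at hand for 7 of the 10 genes. Myc, Npm1 and Fbl had no window and were not searched. Elements outside the windows, such as in introns or further upstream, were not looked for in any gene. The canonical E-box CACGTG, which reads alike on both strands, occurred in 3 of these 7, Max, Mxd4 and Mnt, and in 8.09% of all 27025 genes with a window. The related CACGCG, searched on both strands, occurred in Odc1 only among the 7, and in 10.5% of all genes. The stretches that hold these matches are shown 5′ to 3′ on the gene's strand with the matches in capitals.
Max (chr12:76962216-76962281, minus strand): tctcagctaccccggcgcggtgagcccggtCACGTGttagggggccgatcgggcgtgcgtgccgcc
Mxd4 (chr5:34187894-34187959, minus strand): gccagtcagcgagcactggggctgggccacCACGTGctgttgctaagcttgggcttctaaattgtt
Mnt (chr11:74830771-74830836, plus strand): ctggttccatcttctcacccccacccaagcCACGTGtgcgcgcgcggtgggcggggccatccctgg
Odc1 (chr12:17544663-17544807, plus strand): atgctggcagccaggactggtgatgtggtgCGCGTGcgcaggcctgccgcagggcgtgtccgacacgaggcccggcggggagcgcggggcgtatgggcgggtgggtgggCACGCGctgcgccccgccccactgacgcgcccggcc
The match in Max begins 3 bases before the annotated start, that in Mnt 123 and that in Mxd4 219 bases before it, and the 2 in Odc1 begin 180 and 101 bases before it. A match is a description of the letters and not a measured binding site.

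Signals were MAS5 intensities, 1 value per probe set and array, scaled here to a common 2% trimmed mean of 139; before scaling that mean ran from 91.7 to 179. Dim probe sets were left out by a floor of 41.0 on the mean scaled signal, the median of all, which left 22519 for testing. Fibroblast markers checked the label: Vim, Col1a1, Col1a2, Col3a1 and Thy1 had mean control signals of 8654, 5086, 5959, 3447 and 3264, while Lum, a proteoglycan of fibroblasts, stayed below the filter with a highest signal of 51.7. Markers of keratinocytes, melanocytes, endothelium, macrophages, Schwann cells and fat cells had highest signals of 169, 67.8, 83.9, 207, 102 and 25.9. Of 5 smooth muscle and pericyte markers 4 had lower means with Et1, with a highest signal of 699.6 and a summed signal between 595 and 1168 on control arrays and between 443 and 727 on Et1 arrays. Of 7 tested fibroblast markers 6 had lower means with Et1, at a median of -0.50 on the log2 scale, and their signals summed to between 19286 and 32492 on control arrays and between 13892 and 25783 on Et1 arrays; the part of these shifts in the results below was not tested. The arrays also separate on the probe sets for Bacillus transcripts, controls that can be spiked into RNA before labelling. The mean log2 signal of these was 3.45 to 3.57 on a low set of 3 arrays, Et1 replicate 2 with control replicates 1 and 2, and 4.75 to 5.64 on a high set, Et1 replicates 1 and 3 with control replicate 3. Within the low set the smooth muscle and pericyte markers had a median log2 difference, Et1 minus control, of -0.82, with 0 of 5 higher. Within the high set it was 0.28, with 3 of 5 higher, so their direction turned between the sets. Differences of the members within each set, which rest on 3 arrays, are given below. The part of the set in any result was not tested. The ratio of 3′ to 5′ signals, a check of RNA integrity, was 0.677 to 0.775 for Gapdh and 1.15 to 1.23 for Actb over the 6 arrays.

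The comparison of Et1 with control asked how Myc, its partners and its targets differ after a day of exposure to the peptide. Myc signals were higher in each Et1 culture than in any control culture, by 1.49-fold, and so were those of the antagonists Mxi1 (1.46-fold, in 1 of its 2 probe sets) and Mnt (1.38-fold). Odc1, Ncl and Fbl overlapped between the groups in each of their probe sets, and Npm1 stood 1.23-fold and 1.25-fold higher with overlap. No member passed the threshold: with limma, 0 of the 18 tested probe sets of 9 genes had an adjusted p below 0.05, against 78 of all 22519 (0.346%, 22 higher and 56 lower; with arrays centred on the median instead, 44, of which 7 higher and 37 lower). At an unadjusted p under 0.05 there were 3 of 18, all higher, against 5.94% of all probe sets higher and 6.38% lower. The smallest change that was called anywhere on the array was 0.83 on the log2 scale, and the members ranged from -0.32 to 0.58.

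Myc is read by 1 probe set, 1424942_a_at. Its signals were 489, 486 and 582 in control replicates 1 to 3 and 705, 801 and 804 in Et1 replicates 1 to 3. The lowest Et1 culture stood above the highest control culture, control replicate 3. Means were 519 ± 54.7 and 770.2 ± 56.5 (SD, n = 3), a log2 fold change of 0.57 (SE 0.15, 95% interval 0.23 to 0.91; limma adjusted p = 0.162). The difference was 0.72 within the low spike-in set and 0.37 within the high set. A fit that blocks on this set gave 0.54 at a limma adjusted p = 0.0349; over all alternatives the adjusted p ran from 0.0349 to 0.607 and the log2 fold change from 0.52 to 0.66. With that block 868 probe sets were called in all (3.85%), 2 of them members. In a culture, a higher level per cell and a larger share of cells with that level cannot be told apart from total RNA.

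Mycn, the relative of Myc known from neural and embryonic tissue, lay below the filter in all 3 of its probe sets. Their signals ran from 2.62 to 72.2, and all but 1 of the 18 readings were at 35.7 or less. The exception was Et1 replicate 1 in 1425923_at, at 72.2, where the other 5 arrays read 10.9 to 14.3. No direction was drawn from these signals.

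Max, the common partner, was measured just above the filter by 1 probe set, 1423501_at. Its signals were 50.2, 37.8 and 40.7 in control and 88.2, 27.4 and 58.8 in Et1 cultures. Et1 replicate 2 was the lowest of all 6 and Et1 replicate 1 the highest, so the groups overlapped. The log2 fold change of 0.29 had a 95% interval from -0.70 to 1.29 (limma adjusted p = 0.820). It was -0.67 within the low and 0.82 within the high spike-in set, 0.08 in the fit blocked on the set, -0.09 without Et1 replicate 1 and 0.76 without Et1 replicate 2, so no direction was drawn for Max.

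Among the tested antagonist probe sets, the brighter of Mxi1 had the largest log2 fold change. The difference between Mxi1 and Mnt was not tested. This Mxi1 probe set, 1450376_at, read 213, 199.6 and 149.7 in control and 256, 307 and 254 in Et1 cultures. All 3 Et1 signals lay above all 3 control signals, and control replicate 3 was the lowest. The log2 fold change was 0.55 (SE 0.19; limma adjusted p = 0.286), with 0.57 within the low and 0.77 within the high spike-in set. Blocked on the set, it was 0.67 at a limma adjusted p = 0.0198; over all alternatives the adjusted p ran from 0.0198 to 0.575. The dimmer Mxi1 probe set, 1425732_a_at, read 122, 80.3 and 37.2 in control and 86.4, 121 and 87.2 in Et1 cultures. There the groups overlapped, and the log2 fold change of 0.44 (limma adjusted p = 0.697) rested on control replicate 3, without which it was -0.03. It was 0.83 without control replicate 1 and 0.28 without Et1 replicate 2, and 0.29 within the low and 1.22 within the high spike-in set.

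Mnt, a repressor present in resting and growing cells alike, read 107, 91.5 and 83.3 in control and 125, 157 and 110.1 in Et1 cultures with 1418192_at. The groups did not overlap, with Et1 replicate 3 just above control replicate 1. The log2 fold change was 0.47 (SE 0.20, 95% interval 0.00 to 0.93; limma adjusted p = 0.403), with 0.67 in the low spike-in set and 0.49 in the high one. The other Mnt probe set lay below the filter, at 1.33 to 31.4.

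Mxd4, an antagonist found in differentiating and resting cells, had 4 probe sets, 3 of them below the filter. The tested one, 1422575_at, read 61.0, 106 and 74.4 in control and 69.0, 51.7 and 69.5 in Et1 cultures. The groups overlapped and the log2 fold change was -0.32 (95% interval -0.93 to 0.30; limma adjusted p = 0.672). Its sign was negative in each fit run, with -0.10 without control replicate 2, -0.18 without Et1 replicate 2 and -0.50 without control replicate 1, and -0.64 within the low and -0.10 within the high spike-in set. The 3 dim probe sets had signals from 3.32 to 81.4.

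In all, the groups did not overlap with Et1 higher for 3 of the 18 tested member probe sets, namely those of Myc, Mxi1 and Mnt, against 9.47% of all tested probe sets. With Et1 lower it was 0 of 18, against 8.11%.

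**Figure D1:**
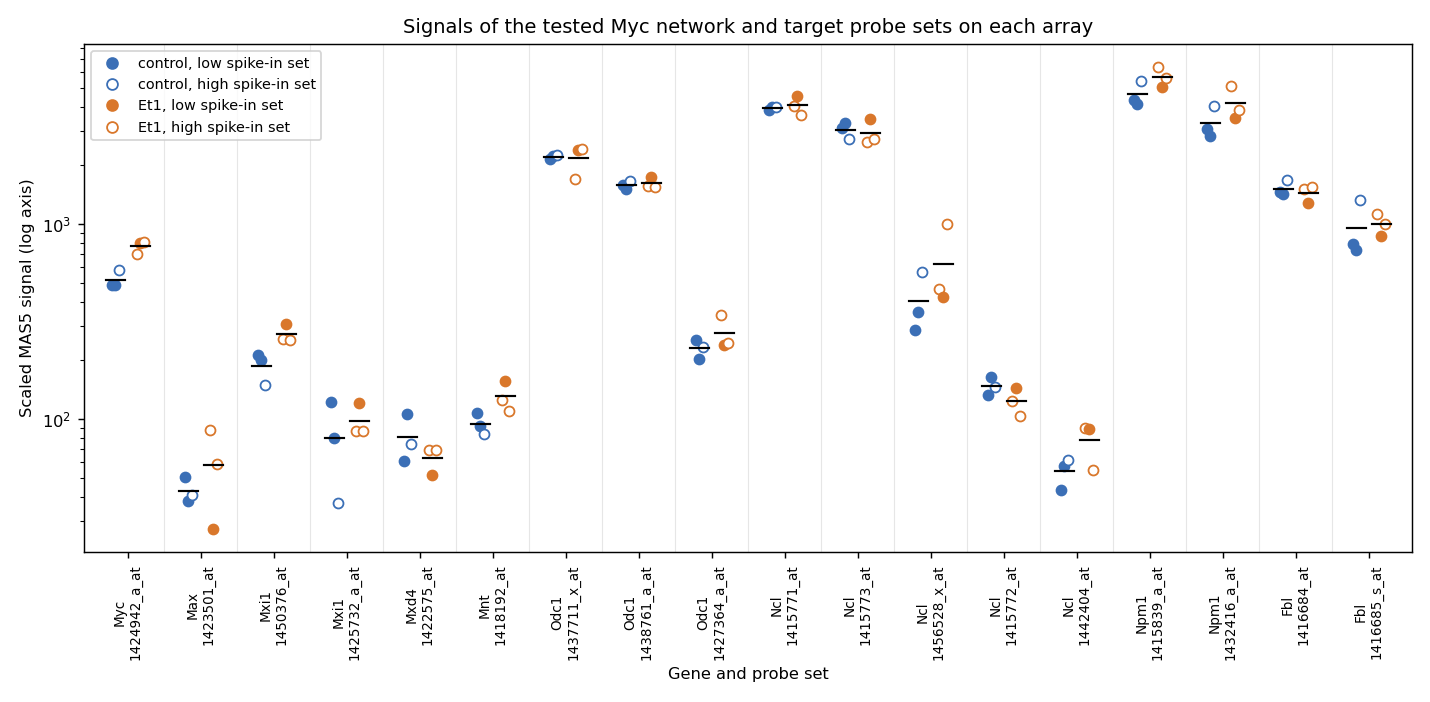
Scaled MAS5 signal (log axis) of each of the 18 tested probe sets on each array, with control in blue and Et1 in orange; filled points are arrays of the low and open points of the high spike-in set, and black bars are group means. The Et1 points of Myc (705 to 804) sit above its control points (486 to 582), while those of Odc1, Ncl, Npm1 and Fbl overlap with control.

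Odc1, the rate-limiting enzyme of polyamine synthesis and the Myc target with the 2 CACGCG matches shown above, had 3 tested probe sets. The brightest, 1437711_x_at, read 2157, 2238 and 2261 in control and 1704, 2400.2 and 2439.6 in Et1 cultures. Et1 replicate 1 was the lowest and the other two Et1 cultures the highest of the 6. The fold was 0.971 with a 95% interval of 0.753 to 1.25 (limma adjusted p = 0.938), and without Et1 replicate 1 the log2 fold change turned from -0.04 to 0.13. It was 0.13 within the low and -0.15 within the high spike-in set. The suffix _x_at marks probes that can also bind other transcripts.

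The 1438761_a_at probe set of Odc1 read 1583, 1505 and 1667 in control and 1559, 1752 and 1546 in Et1 cultures. Its fold was 1.02, with an interval of 0.837 to 1.25 (limma adjusted p = 0.945), and its sign turned with the scaling (log2 fold change 0.03, and -0.02 with arrays centred on the median) and without 1 array (-0.01 without control replicate 2 and -0.03 without Et1 replicate 2), and between the low (0.18) and high (-0.10) spike-in set. The dimmest, 1427364_a_at, had a fold of 1.18 (interval 0.872 to 1.60; limma adjusted p = 0.652), and its log2 fold change of 0.24 was 0.07 without Et1 replicate 1, 0.15 without control replicate 2, and 0.07 within the low and 0.31 within the high set. The 95% intervals of both brighter Odc1 probe sets ended at 1.25-fold upward, and that of the dimmest at 1.60-fold. For Myc the interval around 1.49-fold ran from 1.18-fold to 1.88-fold, so it overlapped with those of Odc1. The difference between the genes was not tested.

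Nucleolin, which packs nascent ribosomal RNA, had 5 tested probe sets. The brightest, 1415771_at, read 3866, 4006 and 3964 in control and 4032, 4525 and 3637 in Et1 cultures, the latter spanning the former on both sides. Its fold was 1.03 (interval 0.848 to 1.24; limma adjusted p = 0.927). That log2 fold change of 0.04 turned to -0.01 with arrays centred on the median and to -0.04 without Et1 replicate 2, and was 0.20 within the low and -0.05 within the high spike-in set.

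The next brightest, 1415773_at, read 3103, 3296 and 2719 in control and 2637, 3468 and 2730.0 in Et1 cultures. Here the 3 arrays of the high spike-in set were the 3 lowest, in both groups, and the log2 fold change was -0.05 (limma adjusted p = 0.915). It turned to 0.01 without control replicate 2, to 0.02 without Et1 replicate 1 and to 0.05 in the fit blocked on that set, and was 0.12 within the low and -0.02 within the high set. The 3 other Ncl probe sets had log2 fold changes of 0.58 (1456528_x_at, where Et1 replicate 3 at 997 stood far above the other two Et1 cultures, at 463 and 422), 0.51 (1442404_at) and -0.26 (1415772_at), all with overlap and limma adjusted p of 0.519 to 0.620. Within the low and high spike-in set these were 0.40 and 0.26, 0.84 and 0.19, and -0.03 and -0.37, in the same order. Without Et1 replicate 3 the first was 0.19 and the last -0.14, and without control replicate 1 the first was 0.37. Probe sets of 1 gene thus differed in sign and size, and those 3 had lower signals than the brightest pair.

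Nucleophosmin, a chaperone of histones and ribosomal proteins, was the target whose probe sets all pointed one way. With 1415839_a_at its signals were 4308, 4152 and 5409 in control and 6387, 5076 and 5612 in Et1 cultures. Only control replicate 3, at 5409, overlapped with the Et1 cultures, above Et1 replicate 2. Means were 4623 ± 685 and 5692 ± 659 (SD, n = 3), a log2 fold change of 0.30 (95% interval -0.03 to 0.63; limma adjusted p = 0.443).

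The other Npm1 probe set, 1432416_a_at, read 3081, 2840.1 and 4026 in control and 5113, 3506 and 3869 in Et1 cultures. Its log2 fold change was 0.33 (limma adjusted p = 0.523), 0.17 without Et1 replicate 1 and 0.19 in the fit blocked on the spike-in set. Both probe sets were also brighter in the high spike-in set than in the low one, by 0.30 and 0.39 on the log2 scale with the group in the fit. Within the low set Et1 minus control was 0.26 and 0.25, and within the high set 0.15 and 0.14.

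Fibrillarin, the methyltransferase of box C/D snoRNPs, read 1457, 1424 and 1679 in control and 1514, 1286 and 1551 in Et1 cultures with 1416684_at. The fold was 0.954, with an interval of 0.764 to 1.19 (limma adjusted p = 0.876). Its other probe set, 1416685_s_at, read 789, 736 and 1335 in control and 1129, 872 and 1000.3 in Et1 cultures, which is 0.11 on the log2 scale (limma adjusted p = 0.875). Control replicate 3 was the highest array in both. The sign of 1416684_at, at -0.07, turned to 0.01 without control replicate 3 and to 0.02 without Et1 replicate 2, and that of 1416685_s_at turned to -0.05 without control replicate 2 and to -0.07 in the fit blocked on spike-in set. Within the low and high spike-in set the difference was -0.16 and -0.13 for 1416684_at and 0.19 and -0.33 for 1416685_s_at. The suffix _s_at marks a probe set that can read several transcripts, which may come from more than 1 gene.

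Of the 18 tested member probe sets 13 had higher and 5 lower means with Et1, with a median log2 fold change of 0.27. Over all tested probe sets the median was 0.03, and 54.1% had higher means. The 18 are not independent, since several of them read the same gene, and their difference from the rest was not tested. Within both spike-in sets 9 were higher and 3 lower. The median was 0.20 within the low and 0.14 within the high set, and 0.10 without Et1 replicate 1.

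**Figure D2:**
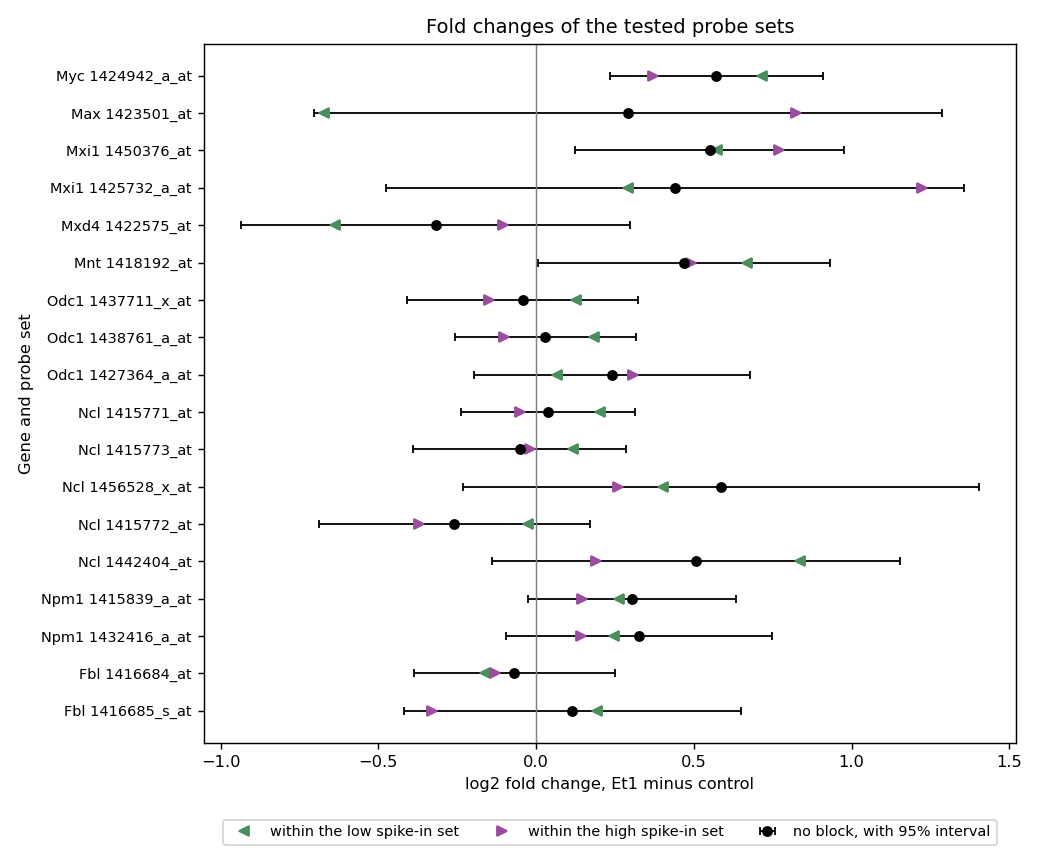
Log2 fold change, Et1 minus control, of each tested probe set without a block, with its 95% interval (black), and the difference within the low (green) and high (purple) spike-in set. The intervals of Myc, 1 Mxi1 probe set and Mnt lie above 0, and those of the other 15 probe sets include 0.

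The rest of the pathway was read from lists of genes, each by its brightest tested probe set, beside all 11666 tested genes. Over those genes the median log2 fold change was 0.05, and 44.3% had lower means with Et1. Of them 0.411% passed the adjusted threshold, 6.93% were higher and 6.53% lower at an unadjusted p under 0.05, and in 10.7% and 8.49% the groups did not overlap with Et1 higher and lower. No gene of the 9 lists passed limma's adjusted threshold in its brightest probe set; counts at the unadjusted level follow, and in no list was the difference from other genes tested. In the fit blocked on the spike-in set, in which 4.47% of all tested genes passed, 14 of the 137 list genes (10.2%) did; the lists were drawn up with earlier results known, and this share was not tested against that of all genes. They were Nop14, Imp3, Wdr12, Nop56, Polr1c, Sat1, Shmt2, Eif4ebp1 and Gadd45a higher, and Cip2a, Pdgfrb, Gas1, Mki67 and Birc5 lower. Without control replicate 3 there were 4, Shmt2, Gadd45a, Gas1 and Pdgfrb.

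Genes for ribosomal RNA processing and ribosome assembly had higher means in 35 of 37 cases, with a median log2 fold change of 0.28. At an unadjusted p under 0.05 in limma 9 were higher and 0 lower, and the groups did not overlap with Et1 higher in 11 and lower in 0. Nop14, a factor of the small ribosomal subunit, read 207 ± 19.0 in control and 334 ± 5.03 in Et1 cultures (SD, n = 3; log2 fold change 0.69, limma adjusted p = 0.111). Wdr12, a subunit of the PeBoW complex of large subunit assembly, stood at 0.82 with overlap. Imp3, of the processome, stood at 0.63 and Ebna1bp2, of large subunit assembly, at 0.55.

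This pattern was also seen in both spike-in sets. Within the low set 35 of 37 genes were higher (median 0.29), and within the high set 32 of 37 (median 0.20). Leaving out each array in turn gave 33 to 37 higher and medians of 0.24 to 0.35, and centring on the median gave 31 higher. Of the 33 tested genes with a promoter window 7 held CACGTG (21.2%), against 8.09% of all genes. It was 0 of 9 for snoRNP proteins, 1 of 12 for RNA polymerase I (8.33%) and 6 of 19 for Myc growth and metabolic targets (31.6%). For other members of the Max network it was 1 of 5, for Myc cofactors 2 of 18 and for the polyamine pathway 1 of 8. Among genes lowered by Myc it was 0 of 7, and among proliferation genes 0 of 10. No difference between these shares was tested.

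Proteins of the snoRNPs, the particles that modify ribosomal RNA and in which Fbl works, had higher means in 9 of 10 cases, with a median of 0.20. Nop56, a core partner of fibrillarin, ran from 720.2 to 759 over the control cultures and from 919 to 1064 over the Et1 cultures, without overlap (log2 fold change 0.41, limma adjusted p = 0.265). Its paralogue Nop58 stood at 0.19, Dkc1, the pseudouridine synthase, at 0.29 and Gar1 at 0.27, each without overlap. At an unadjusted limma p under 0.05 there was 1 gene higher and 0 lower, and 5 genes did not overlap with Et1 higher.

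Of 12 genes of RNA polymerase I and its factors 8 had higher means, with a median of 0.17 and 2 higher and 0 lower at an unadjusted limma p under 0.05. Polr1c, a subunit shared with polymerase III, stood at 0.70 (limma adjusted p = 0.233), and Polr1a, the largest subunit, at 0.37, both without overlap. Polr1b, the second largest, stood at 0.53 with overlap, and Taf1b, of the promoter selectivity factor, at 0.30. The median was 0.16 within the low and 0.06 within the high spike-in set, 0.06 without control replicate 2 and 0.28 without Et1 replicate 2. With arrays centred on the median 6 of the 12 had higher means. Over the 7 genes left without probe sets ending in _x_at or _s_at the median was 0.05. Polr1c was read by a probe set ending in _s_at.

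**Figure D3:**
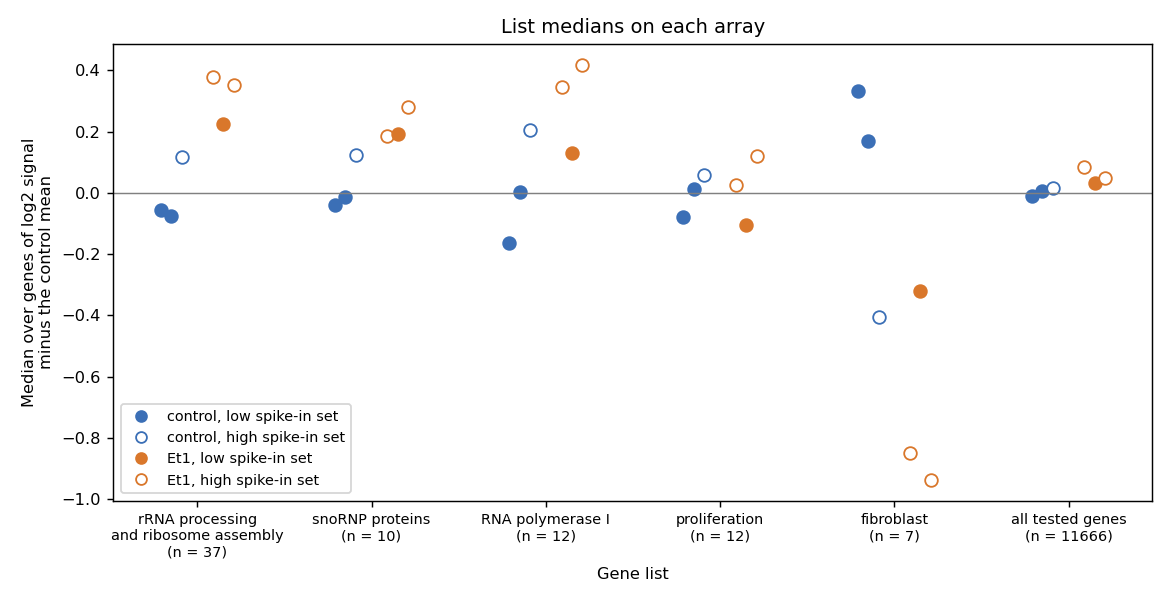
Median over the genes of a list of the log2 signal minus the mean of the 3 control arrays, on each array, with control in blue and Et1 in orange, filled for the low and open for the high spike-in set. For ribosomal RNA processing the Et1 arrays sit at 0.22 to 0.38 and the control arrays at -0.07 to 0.12, while control replicate 3, of the high set, is the highest control array in the first 4 lists and the lowest for fibroblast markers.

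Other members of the Max network were few. Of 5 tested, Mga and Mlx had log2 fold changes of 0.57 and 0.36, Mlxip and Mxd3 of -0.39 and -0.40, and the median was -0.39, or -0.23 without control replicate 2. Mycl stood lowest, at -0.85 with overlap (limma adjusted p = 0.522). Its mean signals were dim, at 72.6 in control and 44.5 in Et1 cultures. Mga, a large repressor that also binds Max, was the 1 with an unadjusted limma p under 0.05 (adjusted p = 0.346). Over the 2 genes above a stricter filter, the 75th percentile of signals, the median was 0.08. Mxd1 and Mlxipl lay below the filter.

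Among 20 cofactors and regulators of Myc turnover 10 had higher and 10 lower means, with a median of -0.0024 that ran from -0.04 to 0.09 as arrays were left out in turn. Cip2a, which shields Myc from dephosphorylation, read 353 ± 24.7 in control and 227 ± 32.7 in Et1 cultures (SD, n = 3; log2 fold change -0.65, limma adjusted p = 0.163). The helicases Ruvbl2 and Ruvbl1 stood at 0.31 and 0.29 without overlap, and Bin1, which binds Myc, at -0.36 with overlap. At an unadjusted limma p under 0.05 there was 1 gene higher and 1 lower.

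In the polyamine pathway around Odc1, 6 of 10 tested genes had higher means, with a median of 0.12; without control replicate 1 it was 5 of 10 and 0.06. Sat1, which acetylates spermidine and spermine for breakdown and export, read 784 ± 159 in control and 1229 ± 215 in Et1 cultures (SD, n = 3; log2 fold change 0.65, limma adjusted p = 0.233), without overlap. Srm, spermidine synthase, stood at -0.32 and Dhps, which uses spermidine to modify eIF5A, at 0.33, both with overlap. Agmat, which makes putrescine from agmatine, stood at 0.60 without overlap (limma adjusted p = 0.527). The Agmat signals were near the filter, at 45.3 to 53.5 in control and 54.8 to 129 in Et1 cultures. Sat1 was the 1 gene with an unadjusted limma p under 0.05.

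Of 21 growth and metabolic targets of Myc 16 had higher means, with a median of 0.20. At an unadjusted limma p under 0.05, 3 were higher and 2 lower. Within the low spike-in set 16 were higher (median 0.24), and within the high set 13 (median 0.12). By array, the median minus the control mean was 0.03 on Et1 replicate 3, below the 0.12 on control replicate 3. Over the 15 genes left without probe sets ending in _x_at or _s_at the median fold change was 0.14. Shmt2, of mitochondrial one-carbon metabolism, read 1139 ± 108 in control and 2009.9 ± 190.1 in Et1 cultures (SD, n = 3; log2 fold change 0.82, limma adjusted p = 0.0609). Eif4ebp1, an inhibitor of translation initiation, stood at 0.61 (limma adjusted p = 0.127). Shmt2 and Eif4ebp1 were both read by probe sets ending in _x_at. Tfrc, the transferrin receptor, stood at -0.55 and Ldha, lactate dehydrogenase A, at -0.37. All 4 were without overlap, so targets known to answer to Myc stood on both sides.

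Genes that Myc is known to lower were also on both sides. Of 10, 8 had lower means, with a median of -0.15, and 3 were lower and 1 higher at an unadjusted limma p under 0.05. Pdgfrb, Gas1 and Thbs1 stood at -1.14, -2.03 and -0.74 and Gadd45a, a stress-induced growth inhibitor, at 1.39, all without overlap (limma adjusted p of 0.0615 to 0.201). The median was -0.16 within the low and 0.15 within the high spike-in set, and it was 0.03 without control replicate 1 and -0.38 without control replicate 3. Leaving out Et1 replicate 1 gave -0.08, and leaving out Et1 replicate 2 gave -0.29.

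Markers of proliferation were given because Myc in fibroblasts responds to serum and mitogens. Of 12, 7 had higher and 5 lower means, and all 5 lower ones, against 0 higher, had an unadjusted limma p under 0.05. The 7 higher ones were Pcna and Mcm2 to Mcm7, genes of DNA replication. Mki67 read 532 ± 15.7 in control and 305 ± 43.4 in Et1 cultures (SD, n = 3; log2 fold change -0.81, limma adjusted p = 0.0871), and Top2a, Birc5 and Ccna2 stood at -0.58, -0.65 and -0.66. The median of the list was 0.13, and -0.51 over the 8 genes left without probe sets ending in _x_at or _s_at. That setting left out Mcm3, Mcm4, Mcm5 and Mcm7, all from the higher side. The median of the whole list thus mixes genes that stood on opposite sides. The list median was 0.04 without control replicate 2, 0.07 without Et1 replicate 3 and 0.02 in the fit blocked on the spike-in set. Within the low set it was 0.08 and within the high set -0.06, so no direction was drawn for the list. The 5 lower markers had lower means in the cultures where Myc and most ribosome assembly genes had higher means. The part of one in the other was not tested.

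**Figure D4:**
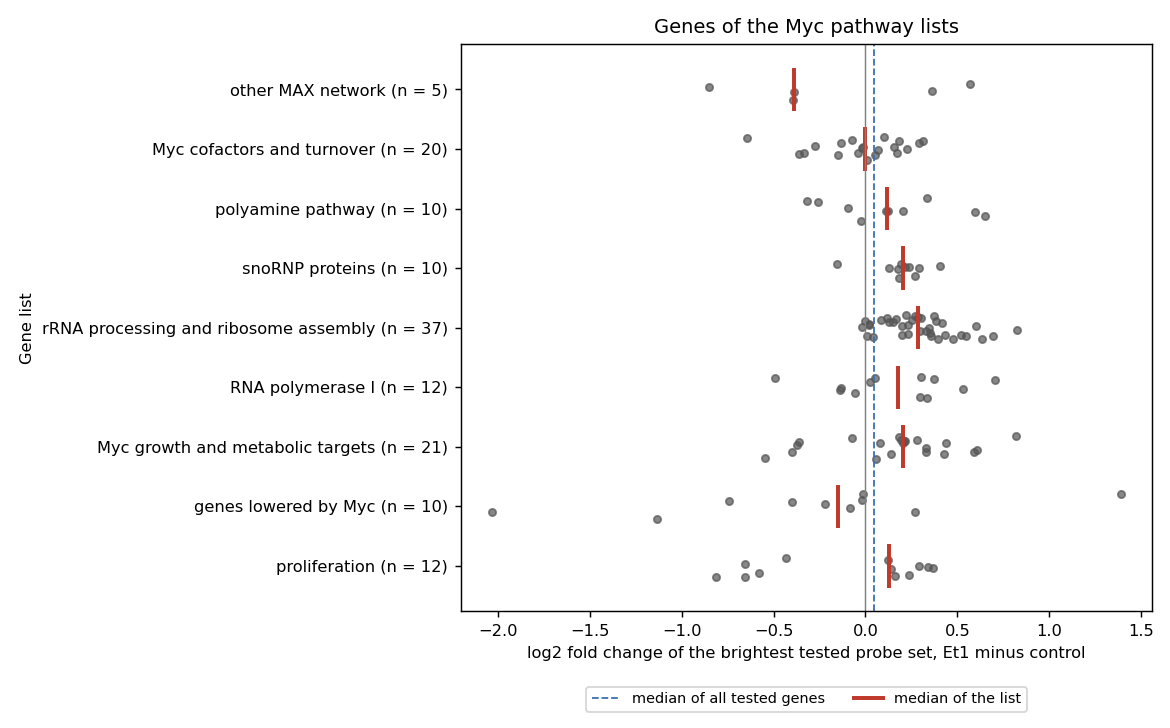
Log2 fold change, Et1 minus control, of each tested gene of the 9 lists by its brightest probe set (grey points), with the median of each list (red) and of all 11666 tested genes (dashed, 0.05). The 37 genes of ribosomal RNA processing lie from -0.02 to 0.82 around a median of 0.28.

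The genes whose signals followed Myc most closely over the 6 arrays were Nmd3, an export factor of the large ribosomal subunit (Pearson r = 0.998), Ddit3, the stress factor CHOP (r = 0.993), and Txn2, a mitochondrial thioredoxin (r = 0.990), out of 11665 genes. Nmd3 read 485, 484 and 543 in control and 628, 706 and 710.3 in Et1 cultures; as for Myc, control replicate 2 was the lowest and Et1 replicate 3 the highest array. With 6 arrays in 2 groups 367 genes exceeded r = 0.9, so such likeness is common and is a description only. Of the members, each by its brightest probe set, Npm1, Mxi1 and Mnt had r of 0.734, 0.678 and 0.674 with Myc. Their ranks were 1446, 1865 and 1893 among the 11665 genes. Ncl, Odc1 and Max had r of 0.197, 0.106 and 0.100, Fbl -0.151 and Mxd4 -0.555.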

How the data were processed

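Total RNA of 6 cultures was labelled with biotin and hybridised to 1 Affymetrix mouse array each. The deposited values are intensity signals on a linear scale, 1 per probe set and array, for which MAS5 is the tool per the submitters' processing notes. Neither its version nor its scaling target was given in the sources used here. Among 45101 probe sets 64 are controls, which were not tested. Here each array was scaled to a common 2% trimmed mean, signals were taken to log2, probe sets with a mean scaled signal at or above 41.0 (the median) were kept, and Et1 was compared with control with limma 3.58.1 in R 4.3.3 (lmFit, eBayes with an intensity trend). P-values were adjusted by the Benjamini-Hochberg method over 22519 probe sets, with a threshold of 0.05. The 4 signals of 0 were set to the lowest positive signal of their array.

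Probe sets were named through GEO's platform annotation, where 34945 have 1 gene symbol, 932 several and 9160 none. The members, the gene lists and the spike-in sets were chosen with earlier results of these data known. Named were all member probe sets and the 3 genes most correlated with Myc. From each list up to 4 genes were named, by smallest unadjusted p in their brightest tested probe set. Genes named as passing with a block, the further proliferation genes and Mycl were chosen after their values were seen. Alternatives were quantile normalization, median centring, other filters, 50 added to each signal, no intensity trend, no _x_at or _s_at probe sets, each array left out, and blocks for the spike-in set and the replicate number. The fit was also run on simulated data, whose outcome is not given here. With 3 arrays per group, their number limits the precision. Scanner settings files and promoters without a RefSeq entry were not used.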

Additional observations from a re-analysis of the deposited data

How the results depend on the processing

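The 18 tested member probe sets had 261 log2 fold changes over 15 alternative fits: 244 kept direction and side of the limma threshold, 2 newly passed it and 15 changed sign. The 2 were Myc (0.54) and Mxi1 1450376_at (0.67) in the fit blocked on the spike-in set; no other alternative called a member. Of the 18, 10 kept their direction in every fit. Signs changed when 1 array was left out for Max (-0.086 to 0.76), Mxi1 1425732_a_at (-0.030 to 0.83), Odc1 1437711_x_at (-0.13 to 0.13), Odc1 1438761_a_at (-0.029 to 0.067), Ncl 1415771_at (-0.043 to 0.11), Ncl 1415773_at (-0.18 to 0.022), Fbl 1416684_at (-0.12 to 0.016) and Fbl 1416685_s_at (-0.045 to 0.38). They changed with median centring for Odc1 1438761_a_at (-0.023) and Ncl 1415771_at (-0.015), and with the spike-in block for Ncl 1415773_at (0.049) and Fbl 1416685_s_at (-0.068). The members' median log2 fold change of 0.27 was 0.18 over the 12 probe sets above the 75th percentile, 0.13 with the spike-in block and 0.10 to 0.30 without 1 array. Of all probe sets, 78 were called by limma, against 44 with median centring, 40 with no filter, 7 without an intensity trend, 868 with the spike-in block and 4 to 229 without 1 array (4 and 4 for control replicates 1 and 2, 229 for control replicate 3, and 10, 46 and 6 for the Et1 replicates). List genes called went from 0 to 1 with quantile normalization, 2 with the 75th percentile filter, 14 with the spike-in block and 0 to 4 without 1 array. The cause of these changes was not tested, beyond the fewer arrays or probe sets that an alternative holds. With the replicate number as a block 567 probe sets, 9 list genes and 0 members were called (Myc limma adjusted p = 0.0569). The series text has cultures split into control and treated, but does not say whether equal replicate numbers mark the same culture. Same-numbered arrays deviated from their group means with correlations of -0.12, 0.44 and 0.45, and control replicate 1 correlated best with Et1 replicate 2 (0.33). These correlations do not settle whether the arrays are paired, so the main fit had no block and a pairing by culture remains possible.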
